A study of Mus musculus with 9 samples.

Results

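The genes described here encode the machinery that copies DNA in S phase, together with the E2F factors that switch many of these genes on. They are 35 genes listed by symbol, all 35 were found among the 47728 genes of the count files, and all 35 passed the filter on low counts. They were measured in polyA RNA of C2C12, an established mouse myoblast line, kept in medium with fetal bovine serum and moved at day 0 to medium with horse serum, insulin, transferrin and selenium. The groups were a control, a Cry1 knockdown and a Cry2 knockdown, each collected at days 0, 3 and 5, which makes 9 libraries, 1 per genotype and day. Cry1 and Cry2 are repressors of the circadian clock. How the knockdowns were made, what the control carried and whether a knockdown is 1 clone are not given in the labels.

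In proliferating cells, cyclin E with CDK2 frees the activating E2F factors from the retinoblastoma protein, and E2F then drives the genes for origin licensing, DNA polymerases and nucleotide synthesis. Licensing loads the ring of MCM2 to MCM7 onto origins with the help of CDC6 and CDT1, and the ring becomes an active helicase when CDC45 and the GINS complex join it. Myoblasts leave the cell cycle before they fuse into myotubes, and shutdown of this program is a known part of that exit.

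The libraries held 4731020 to 6412279 counts, and TMM scaling factors ran from 0.941 to 1.07. Values below are CPM, counts scaled to library size with these factors, and 3 counts correspond to 0.468 to 0.634 CPM by library. Where 3 values follow each other for a genotype, they are those of days 0, 3 and 5, and "the Cry1 days" and "the Cry2 days" stand for the libraries of that knockdown. Cry1 stood at 8.3, 6.65 and 8.12 CPM in the Cry1 knockdown at days 0, 3 and 5, against 20.5, 15.8 and 17.4 in the control. Cry2 stood at 7.27, 8.26 and 16.6 CPM in the Cry2 knockdown, against 19.2, 39.7 and 48.9 in the control. Each targeted gene was thus lower in its own knockdown at every day. The edgeR log2 fold change of Cry1 was -1.22 ± 0.22 (SE, adjusted p = 0.0265), and that of Cry2 was -1.74 ± 0.17 (SE, adjusted p = 0.0138). Myoblast markers were present in every library, at a summed 3730 to 9090 CPM over 6 genes. The summed level of 10 markers of differentiated muscle went from 335 to 1220 CPM at day 0 to between 15500 and 23400 at days 3 and 5. Endothelial and blood markers stayed at or under 2.59 CPM in sum, adipocyte markers lay at 8.68 to 36.2 CPM, osteoblast markers at 27.3 to 61.7 CPM and reserve or satellite cell markers at 297 to 510 CPM. The summed level of 5 fibroblast markers moved with the days, from 529 to 1660 CPM at day 0 to 1880 to 3630 CPM at day 3 and 3300 to 5750 CPM at day 5. Most of it was Col1a1, a collagen gene, with 486 to 1630 CPM at day 0. Of the 4 fibroblast markers tested, Col1a1, Dcn and Lum rose by day 3 and by day 5, Pdgfra fell by day 3, and Thy1 was at 0 in all 9 libraries. Mitochondrially encoded genes took 0.695 to 1.22% of counts at day 0, 1.34 to 2.21% at day 3 and 1.92 to 2.12% at day 5. The part of these shifts in the day differences given below was not tested. With 1 library per genotype and day, the tests set a day difference against its disagreement between genotypes, and a genotype difference against its disagreement between days. A knockdown effect and any other difference common to the 3 libraries of a genotype cannot be told apart. In bulk RNA, fewer cycling cells and less RNA per cell cannot be told apart either.

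The promoters of these genes were read first, since E2F is the factor that the genes are grouped around. RefSeq gives a window from 250 bases before to 50 after the start (build GRCm38.p6) for 30 of the 35 genes, and none was used for Ccne2, Mcm4, Gins1, Gins2 and Pole. Every window of E2f1, Dut, Cdc6 and Mcm7 lies wholly inside the GENCODE gene model of mm10. For these genes, sequence before the start of the model was not searched. E2f1 and Dut are among the genes counted below as without an E2F word. The E2F words searched on both strands were TTTGGCGC, TTTGCCGC, TTTCGCGC, TTTCCCGC and TTCCCGCC, of which TTTCCCGC and TTCCCGCC can overlap. At least 1 was found in 16 of the 30 genes, or 53.3%. The same words lay in the windows of 8.22% of the 9490 tested genes with a window. They were found in 38.2% of 55 other genes of the replication pathway and in 0 of 26 mitosis genes. Base composition was not matched between these groups, and a match is a match of letters, not a shown binding site.

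The slices below show the word nearest the start in capitals with its flanks, read in the direction of the gene, for 12 of the 16 genes. Positions count from 1 at the RefSeq start, with -1 the base before it, and the start and end of each slice are on the forward strand. The windows of Cdc6 and Mcm7 and the second window of Uhrf1 lie wholly inside the mm10 gene models. The model of Cdc6 begins at chr11:98907801. Words at negative positions in these windows are therefore not before the start of the model. Not shown are further words of Mcm3 (from 39), Mcm7 (from -165) and, in a second window, Uhrf1 (from -185). Cdc6, Cdt1, Mcm3, Mcm5 and Mcm7 license origins, Rfc3 and Pola1 work at the fork, Rrm1 supplies nucleotides, and Uhrf1 and Chaf1a act on newly made chromatin. E2f2 is included because it holds a word and did not fall, and E2f3 because it is an E2F factor that did.

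Cdc6, chr11:98907998-98908035, plus strand, word from -138: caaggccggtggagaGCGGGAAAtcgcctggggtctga
Cdt1, chr8:122568036-122568064, plus strand, word from 33: ggaactaccttTTTGGCGCcatggcgcaa
Mcm3, chr1:20820276-20820304, minus strand, word from 19: aaacttccgtGGCGGGAAAacttgggaag
Mcm5, chr8:75109341-75109382, plus strand, word from -153: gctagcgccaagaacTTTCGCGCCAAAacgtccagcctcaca
Mcm7, chr5:138171849-138171878, minus strand, word from 17: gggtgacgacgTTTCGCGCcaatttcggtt
Pola1, chrX:93632271-93632308, minus strand, word from -138: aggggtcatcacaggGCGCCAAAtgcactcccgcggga
Rfc3, chr5:151651190-151651219, minus strand, second word from 1: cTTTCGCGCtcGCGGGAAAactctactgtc
Rrm1, chr7:102441613-102441650, plus strand, word from -67: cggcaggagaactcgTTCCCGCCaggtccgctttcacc
Uhrf1, chr17:56303274-56303311, plus strand, word from -48: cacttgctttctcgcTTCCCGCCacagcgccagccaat
Chaf1a, chr17:56040354-56040391, plus strand, word from -47: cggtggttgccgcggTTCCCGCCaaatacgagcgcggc
E2f2, chr4:136172302-136172323, plus strand, word from 40: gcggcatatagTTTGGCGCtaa
E2f3, chr13:29986057-29986085, minus strand, word from -12: ttgaaaagccGGCGGGAAAtctgagtttc

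Whole stretches of 250 bases before the start are given for 3 genes. Mcm6 holds the words at 2 places. Mcm10 had the largest fall by day 3 and holds none in its window, and Cdk2 holds a word and did not fall. All 3 lie on the minus strand, and capitals again mark the E2F words. The searched window of Mcm10, which runs past this stretch, ends in tttggcg. That is TTTGGCGC without its last base, so a word that crosses the end of the window could not be found.

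Mcm6, chr1:128359706-128359955: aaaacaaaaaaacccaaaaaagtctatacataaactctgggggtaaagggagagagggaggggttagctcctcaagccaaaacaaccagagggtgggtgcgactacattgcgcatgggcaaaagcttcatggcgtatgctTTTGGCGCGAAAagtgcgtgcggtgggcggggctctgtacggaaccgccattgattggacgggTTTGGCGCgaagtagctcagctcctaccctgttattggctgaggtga
Mcm10, chr2:5012792-5013041: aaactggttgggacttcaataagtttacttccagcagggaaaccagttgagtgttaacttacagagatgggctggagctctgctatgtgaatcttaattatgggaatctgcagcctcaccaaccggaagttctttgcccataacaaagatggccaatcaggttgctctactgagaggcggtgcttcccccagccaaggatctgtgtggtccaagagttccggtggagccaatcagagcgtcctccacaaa
Cdk2, chr10:128705052-128705301: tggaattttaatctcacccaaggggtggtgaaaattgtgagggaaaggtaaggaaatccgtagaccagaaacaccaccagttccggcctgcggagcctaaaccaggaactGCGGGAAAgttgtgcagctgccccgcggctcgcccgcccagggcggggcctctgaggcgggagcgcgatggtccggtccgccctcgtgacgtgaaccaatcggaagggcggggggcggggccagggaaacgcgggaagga

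Other promoter elements were searched in the same windows. The CCAAT box (CCAAT, both strands) was in 19 of 30 genes, or 63.3%, against 43.2% of tested genes and 76.9% of mitosis genes. The CHR element of cell cycle genes (TTTGAA or TTCGAA, both strands) was in 7 of 30 genes, or 23.3%, against 16.3% of tested genes and 73.1% of mitosis genes. The E-box CACGTG, the word that the clock factors CLOCK and BMAL1 read, was in 5 of 30 genes, or 16.7%, against 11.9% of tested genes. Both the replication and the mitosis genes fell in these libraries, as given below.

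Nearly the whole program fell once differentiation began. At day 3, 33 of the 35 genes were lower than at day 0 (edgeR quasi-likelihood test, adjusted p under 0.05), with a median log2 fold change of -1.61, while Cdk2 rose and E2f2 did not pass. At day 5, 33 genes were lower than at day 0, none was higher, and the median was -2.62. Among all 13094 genes tested, 25.7% were lower and 25.4% higher at day 3, 27.9% were lower and 28.3% higher at day 5, and the median change was 0.01 at both days. The 35 genes together went from 3070 CPM at day 0 to 1170 and 608 CPM at days 3 and 5 in the control. With Cry1 knocked down the sum went from 3400 to 1130 and 724 CPM, and with Cry2 knocked down from 2470 to 1060 and 699 CPM. At day 5 the control thus held 19.8% of its day 0 sum, the Cry1 knockdown 21.3% and the Cry2 knockdown 28.3%. A sum is weighted to the genes of highest level. The median share left per gene at day 5 was 14.1, 13.8 and 17.7% in the same order. Every gene but E2f2 and Cdk2 was lower than day 0 in all 3 genotypes at both later days. Of all genes tested, 35.1% were lower in all 3 genotypes at day 3 and 36.7% at day 5.

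**Figure D1:**
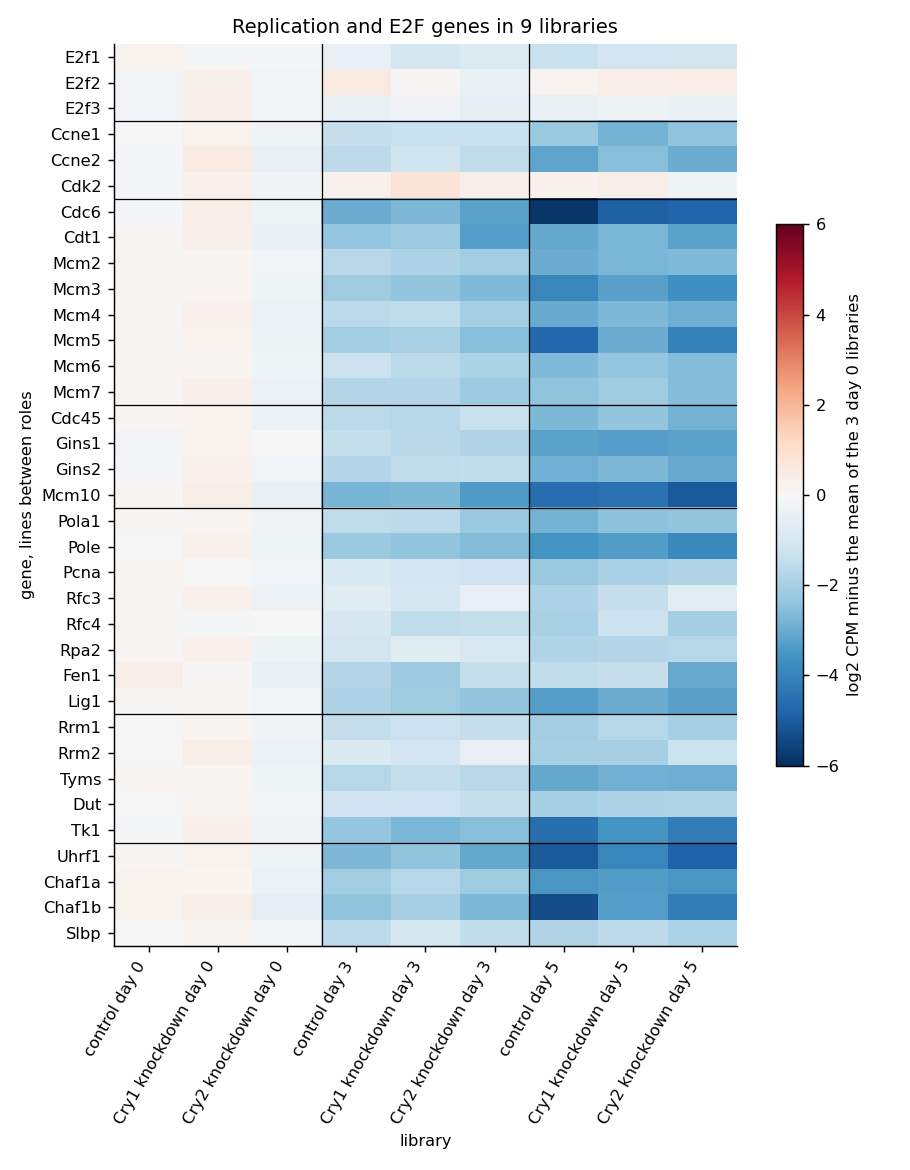
Each row is 1 of the 35 genes, each column 1 of the 9 libraries ordered by day, and the colour is the log2 CPM minus the mean of the 3 day 0 libraries, with lines between roles and days. At days 3 and 5, 33 rows are blue, down to below -5 for Cdc6, and E2f2 and Cdk2 stay near the day 0 level.

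The 3 activating E2F factors, which start the program, had the smallest median change of the 7 roles, -0.4 at day 3. E2f1 had 52.9, 32.6 and 18.3 CPM over the control days, 44, 23.3 and 20.8 over the Cry1 days and 42.2, 26.2 and 21.2 over the Cry2 days. Every later library was below every day 0 library, and E2f1 fell by 0.76 ± 0.13 (SE) on the log2 scale by day 3 (adjusted p = 0.00115) and by 1.2 ± 0.13 by day 5 (adjusted p = 6.74e-05). E2f2 had 51, 81.1 and 64.2 CPM over the control days, 68.6, 59.2 and 73.3 over the Cry1 days and 51, 41.3 and 73.9 over the Cry2 days. The genotypes moved in different directions at day 3, where the control held 159% of its day 0 level, the Cry1 knockdown 86.3% and the Cry2 knockdown 80.9%. With all libraries no day difference of E2f2 passed (day 3 against day 0 0.08 ± 0.2, adjusted p = 0.755, and -0.25 without the control libraries), although its day 5 against day 0 change passed without the control library of day 3 (0.32, adjusted p = 0.0351) and with only the 6 libraries compared (0.33, adjusted p = 0.0301). Its day 5 against day 3 change passed without the control library of day 3 (0.57, adjusted p = 0.0186) and without all control libraries (0.57, adjusted p = 0.0402). E2f3 had 44, 37 and 36.3 CPM over the control days, 61.8, 42.9 and 40.6 over the Cry1 days and 44.7, 33.2 and 37.4 over the Cry2 days. It fell by 0.4 ± 0.1 by day 3 (adjusted p = 0.00828) and then held its level, with a day 5 against day 3 change of 0.02 ± 0.1 (adjusted p = 0.909). Without the Cry1 libraries the day 3 change of E2f3 did not pass (-0.34, adjusted p = 0.0741).

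Cyclin E and CDK2, the kinase that commits cells to S phase, parted. Ccne1, one of the genes for cyclin E, had 38.9, 14.3 and 7.96 CPM over the control days, 43.1, 15 and 5.3 over the Cry1 days and 32, 15 and 7.18 over the Cry2 days. Ccne2, the other, had 27.7, 9.74 and 3.15 CPM over the control days, 40.8, 12.5 and 4.94 over the Cry1 days and 20.8, 9.95 and 3.59 over the Cry2 days. Both cyclin genes fell, with no overlap between the days. The share of all genes whose days separate in this way was not counted, here or for other genes described so. The day 5 changes were -2.48 ± 0.17 for Ccne1 (adjusted p = 3.26e-06) and -2.91 ± 0.17 for Ccne2 (adjusted p = 1.42e-06). Of the exon bases of Ccne2, 17.42% overlap Ints8 on the other strand, and the library kit does not keep strand. Cdk2, the catalytic subunit, had 52.2, 66.4 and 65.9 CPM over the control days, 66.8, 93.1 and 70.8 over the Cry1 days and 48.1, 72.6 and 46.3 over the Cry2 days. It was higher at day 3 than at day 0 in all 3 genotypes and was the only one of the 35 to rise, by 0.47 ± 0.11 (adjusted p = 0.00732). Without the Cry1 libraries this rise did not pass (0.47, adjusted p = 0.0566). At day 5 the control held 126% of its day 0 level, the Cry1 knockdown 106% and the Cry2 knockdown 96.2%, and that change did not pass (0.13 ± 0.12, adjusted p = 0.367).

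Origin licensing fell as a whole, with 8 of 8 genes lower at both days and medians of -2.04 and -2.95. Cdc6, the loader of the MCM ring (mm10 chr11:98907801-98923940), had 29, 4.03 and 0.555 CPM over the control days, 40.3, 4.82 and 1.06 over the Cry1 days and 26.3, 3.39 and 1.13 over the Cry2 days. Its change by day 5, -5.09 ± 0.21 on the log2 scale or 34-fold lower, was the largest of the 35 (adjusted p = 2.29e-07). The control library of day 5 held 3 counts of Cdc6, so the 1.91% of day 0 left there has a 95% exact interval of 0.391 to 5.67%, for counting error only. Cdt1, its partner in loading (mm10 chr8:122568015-122573554), had 53.5, 10.1 and 5.92 CPM over the control days, 61.4, 11.1 and 7.42 over the Cry1 days and 38.1, 5.08 and 5.48 over the Cry2 days. Cdt1 had most of its fall by day 3 (-2.54 ± 0.14, adjusted p = 1.93e-06), and its further change to day 5 did not pass (-0.47 ± 0.17, adjusted p = 0.0717).

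The MCM subunits form 1 ring with a copy of each, so their levels were compared per kilobase of merged exons. This length counts the exons of all annotated transcripts, so a gene with long minor transcripts reads low. At day 0 the highest of the 6 was 1.72 to 1.92 times the lowest in the 3 genotypes, with Mcm2 lowest in each. At day 3 this ratio was 2.04 to 2.32. At day 5 it was 2.63 with Cry1 knocked down, 3.22 with Cry2 knocked down and 5.42 in the control, so the subunits stood further apart than at day 0. From day 0 to day 5, Mcm5 per kilobase went from 34.7 to 1.25 in the control, from 38.8 to 4.16 with Cry1 knocked down and from 26.7 to 1.99 with Cry2 knocked down. Mcm7 per kilobase went from 37.6 to 6.78, from 43.8 to 8.3 and from 28 to 5.85 in the same order. Mcm5 thus kept 3.6, 10.7 and 7.44% of its day 0 level, least in the control, and Mcm7 kept 18, 19 and 20.9%. These 2 subunits were singled out after their values were seen. Of the 50-base words of Mcm7, 34.19% also occur in other genes' transcripts, among them the gene model Gm5487. Of its exon bases, 12.58% lie under other genes, among them Ap4m1 and Cops6 on the other strand. Part of the Mcm7 counts, here and below, may thus belong elsewhere.

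**Figure D2:**
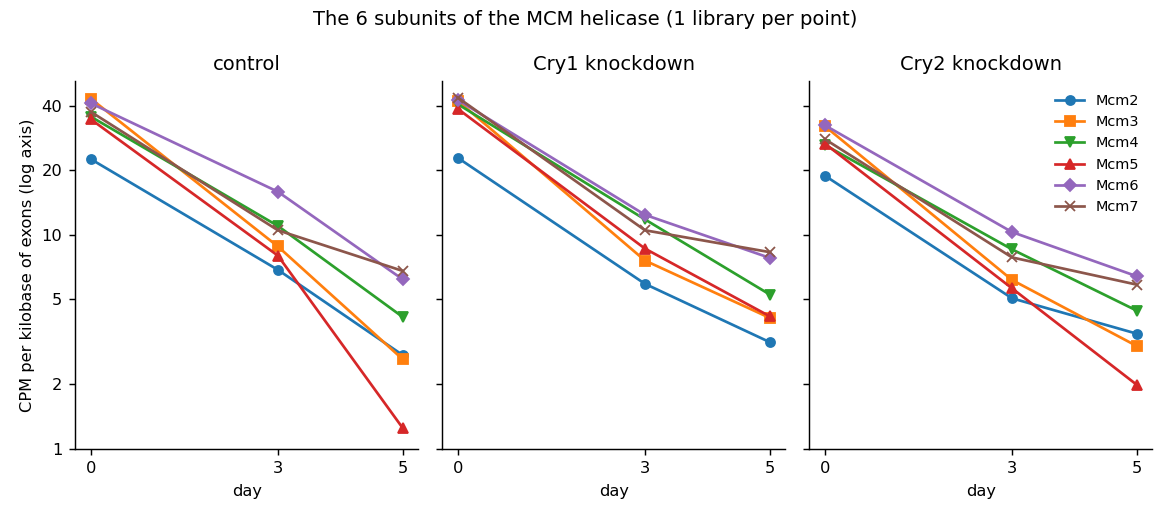
CPM per kilobase of merged exons on a log axis against day, for Mcm2 to Mcm7, with 1 panel per genotype and 1 library per point. The lines lie within 1.92-fold of each other at day 0 and spread to 5.42-fold in the control at day 5, where Mcm5 is lowest at 1.25 and Mcm7 highest at 6.78.

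Mcm4, a subunit of the ring, had 128, 39.5 and 14.8 CPM over the control days, 146, 42.2 and 18.9 over the Cry1 days and 94.5, 30.7 and 15.9 over the Cry2 days. Mcm6, which had the smallest fall by day 3 among the licensing genes (-1.59 ± 0.12, adjusted p = 1.19e-05), had 192, 74.3 and 28.9 CPM over the control days, 199, 58 and 36.4 over the Cry1 days and 151, 48.1 and 29.9 over the Cry2 days. Mcm7 had 167, 46.5 and 30 CPM over the control days, 194, 46.6 and 36.7 over the Cry1 days and 124, 34.7 and 25.9 over the Cry2 days. For these 3 subunits every day 0 library was above every later one, and the Cry2 knockdown was the lowest of the genotypes at days 0 and 3. Days 3 and 5 did not overlap for Mcm4 and Mcm6 and did for Mcm7.

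The 4 genes of helicase activation fell at both days. Mcm10, a scaffold that helps to start the helicase (mm10 chr2:4989714-5012791), had 33.7, 4.54 and 1.3 CPM over the control days, 39.9, 4.82 and 1.41 over the Cry1 days and 22.9, 2.96 and 0.945 over the Cry2 days. It fell by 2.96 ± 0.14 on the log2 scale by day 3 (adjusted p = 1.15e-06), and its day 5 change was -4.7 ± 0.17, or 25.9-fold lower (adjusted p = 1.35e-07). Cdc45, a core part of the active helicase, had 35.3, 10.6 and 5 CPM over the control days, 37.5, 9.81 and 6.36 over the Cry1 days and 25.7, 12.7 and 4.54 over the Cry2 days, with a day 3 change of -1.57 ± 0.17 (adjusted p = 9.96e-05). The Cry2 knockdown was lowest for Cdc45 at days 0 and 5 and highest at day 3. Gins1 and Gins2, of the GINS complex, kept 8.82 to 14.2% of their day 0 level at day 5. For Gins2, 67.32% of its exon bases lie under Gse1 on the other strand.

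Fork genes fell as well, with 8 of 8 lower at both days and medians of -1.52 and -1.89. Pole, the catalytic subunit of the leading strand polymerase (mm10 chr5:110286306-110337474), had 48.1, 9.91 and 3.89 CPM over the control days, 55.6, 8.98 and 4.59 over the Cry1 days and 38.8, 7.62 and 3.21 over the Cry2 days. Its day 3 change of -2.42 ± 0.12 was the largest among the fork genes (adjusted p = 1.32e-06). Rfc3, a subunit of the loader that opens the PCNA clamp, had 32.1, 18.6 and 8.33 CPM over the control days, 36.6, 15.3 and 11.8 over the Cry1 days and 24.2, 21.4 and 19.5 over the Cry2 days. Its day 3 change was the smallest of this role, -0.77 ± 0.26 (adjusted p = 0.0346), and it did not pass without any 1 of 5 libraries, those of days 0 and 3 in the control and the Cry1 knockdown and of day 3 in the Cry2 knockdown (-0.54 without the Cry1 library of day 0, adjusted p = 0.16). With Cry2 knocked down 80.4% of its day 0 level was left at day 5, against 25.9% in the control and 32.3% with Cry1 knocked down. Pcna, the clamp itself, kept 20 to 31.4% at day 5 (31.79% of its 50-base words also occur in Pcna-ps2), and Lig1, the ligase that joins Okazaki fragments, kept 9.62 to 12.2%. Fen1, the flap nuclease, has 84.19% of its exon bases under other genes and only 3 to 41 counts per library, so its values are uncertain.

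Nucleotide supply fell in 5 of 5 genes at both days. Rrm2, the subunit of ribonucleotide reductase that is made in S phase (mm10 chr12:24708241-24714146), had 348, 189 and 87.4 CPM over the control days, 433, 157 and 86.5 over the Cry1 days and 270, 247 and 142 over the Cry2 days. At day 3 the control held 54.3% of its day 0 level, the Cry1 knockdown 36.3% and the Cry2 knockdown 91.8%. The Cry2 knockdown was thus the lowest for Rrm2 at day 0 and the highest at days 3 and 5. Over the 3 genotypes Rrm2 fell by 0.86 ± 0.23 by day 3 (adjusted p = 0.0132), the smallest fall of this role. It did not pass without the Cry1 library of day 0 (-0.55, adjusted p = 0.0561), the Cry1 library of day 3 (-0.67, adjusted p = 0.078) or the control library of day 0 (-0.80, adjusted p = 0.059). Tk1, thymidine kinase, had the largest, with a change of -2.52 ± 0.18 (adjusted p = 7.18e-06). It had 74, 16.1 and 3.52 CPM over the control days, 99.5, 12 and 6.71 over the Cry1 days and 69, 13.5 and 4.35 over the Cry2 days. Tyms, Dut and Rrm1, which make or guard the thymidine and deoxynucleotide pools, kept 11 to 31.3% of day 0 at day 5.

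Of the genes for chromatin and histone supply, 4 of 4 fell at both days. Uhrf1, which keeps DNA methylation through replication (mm10 chr17:56303321-56323486), had 199, 29.2 and 5.74 CPM over the control days, 218, 36.2 and 12.4 over the Cry1 days and 157, 22.6 and 6.61 over the Cry2 days. Its day 5 change was -4.56 ± 0.16, or 23.5-fold lower (adjusted p = 1.26e-07). Chaf1b, of the histone chaperone CAF-1, kept 2.12% of day 0 in the control at day 5, where it had 4 counts, against 7.82% and 8.49% in the Cry1 and Cry2 knockdowns. Chaf1a, another CAF-1 subunit, has 52.5% of its exon bases under Ubxn6 on the other strand, so its values here and below are uncertain. For Uhrf1, 18.91% of the 50-base words also occur in transcripts of the gene models Gm5648 and Gm15953. Slbp, which binds the end of replication-dependent histone mRNA, moved least of these. It had 47.2, 16.5 and 13.7 CPM over the control days, 52.2, 23.6 and 16.2 over the Cry1 days and 46.5, 17.6 and 13.2 over the Cry2 days, with a day 3 change of -1.35 ± 0.11 (adjusted p = 1.22e-05).

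**Figure D3:**
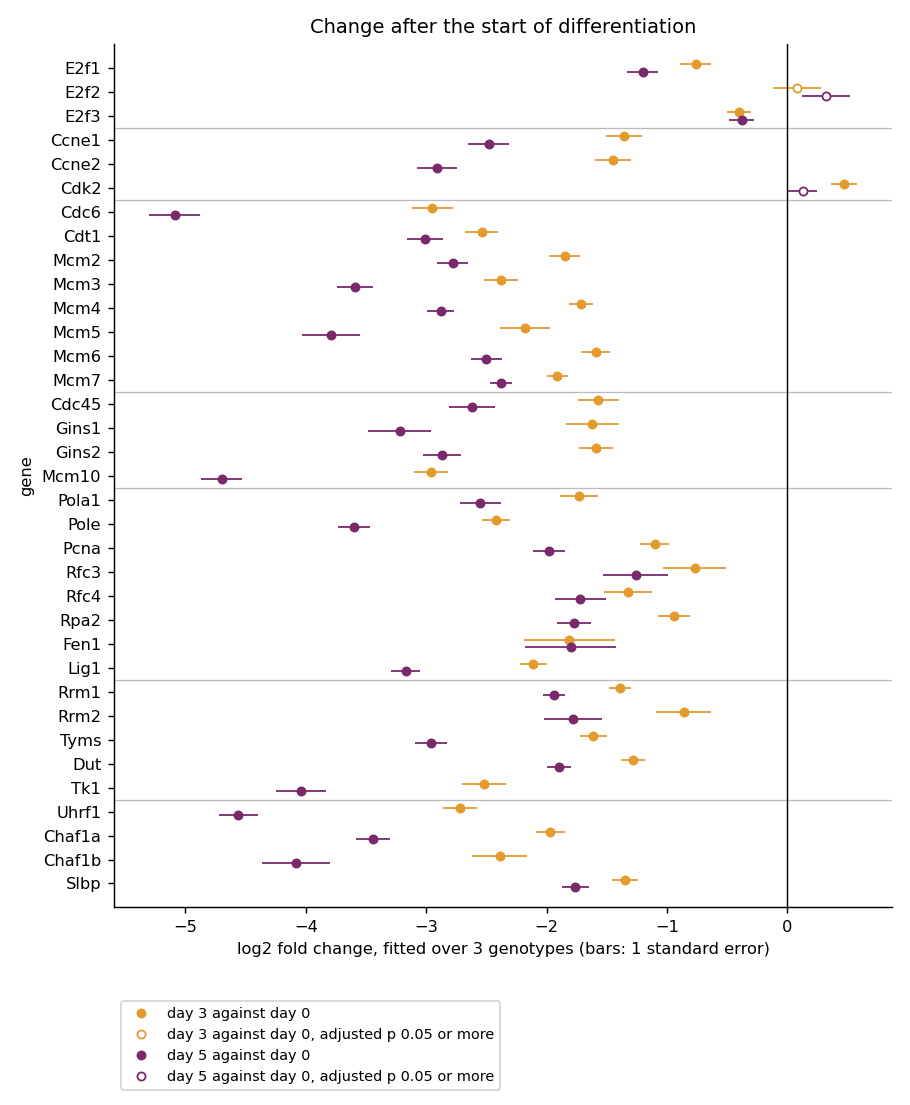
Fitted log2 fold changes of the 35 genes for day 3 and day 5 against day 0, with bars of 1 standard error, grouped by role, and open points for adjusted p of 0.05 or more. Changes at day 5 reach -5.09 for Cdc6, and only E2f2 and Cdk2 lie right of 0.

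The fall went on from day 3 to day 5. In that step 28 of 35 genes fell and none rose, against 13.2% of all genes lower and 14.7% higher, with a median of -0.93. The 7 that did not pass were E2f2, E2f3, Cdk2, Cdt1, Rfc3, Rfc4 and Fen1. Of the exon bases of Rfc4, 12.65% overlap Eif4a2. E2f1 passed in 0 of the 9 fits with a library left out, with changes of -0.53 to -0.25. Without the control library of day 5 the median was -0.82, and without the Cry2 knockdown library of day 5 it was -1.10. The order of the falls over the 35 genes was much the same in each genotype: Pearson's r was 0.88 to 0.93 for day 3 and 0.92 to 0.94 for day 5 between pairs of genotypes, which share no library. These are correlations over genes of 1 pathway, given as a description.

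Genes with and without an E2F word overlapped in the size of their change. By day 3 the 16 genes with an E2F word had a median of -1.82 and the 14 without had -1.47, with ranges of -2.95 to 0.47 and -2.96 to -0.76. By day 5 the medians were -2.52 and -2.23. Among the other tested genes, 38.7% of the 764 with a word were lower at day 3, against 26.3% of the 8696 without, with medians of -0.20 and 0.02.

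Much of the rest of the pathway fell too. Of 71 other replication and E2F genes, 51 were lower and 2 higher at day 3 (median -1.16), and 58 were lower and 4 higher at day 5 (median -1.68). Among 16 genes of origin recognition, licensing control and firing, 12 fell by day 3, the most by Ticrr, which is needed for origin firing (-3.09 ± 0.21, adjusted p = 5.62e-06). Of 26 further polymerase, clamp loader and fork genes, 19 fell, the most by Dna2, a nuclease and helicase (-2.84 ± 0.25, adjusted p = 2.45e-05). Of 7 further nucleotide genes, 5 fell, led by Shmt1 of folate metabolism (-2.65 ± 0.25, adjusted p = 3.6e-05), and Rrm2b rose. Rrm2b encodes the reductase subunit that serves cells outside S phase (fitted change 0.7 ± 0.16, adjusted p = 0.00495). It stood at 19.5, 45.7 and 43.3 CPM over the control days, 31.9, 39.2 and 51.9 over the Cry1 days and 26.5, 40 and 51.8 over the Cry2 days. The rise by day 3 was largest in the control. Among chromatin genes 5 of 6 fell, led by Atad2 (-2.31 ± 0.13, adjusted p = 2.02e-06), and all 6 cyclin A and CDK regulators fell, led by Fbxo5, an inhibitor of the anaphase-promoting complex (-2.67 ± 0.15, adjusted p = 2.51e-06). Among 10 E2F partners, repressors and pocket proteins, 4 fell and 1 rose. E2f7, a repressor that E2F itself induces, fell by 2.89 ± 0.16 (adjusted p = 2.25e-06), and Rb1, which encodes the retinoblastoma protein, rose by 0.8 ± 0.1 (adjusted p = 0.000163), from 55.1 to 106 CPM in the control. All 29 mitosis genes fell at day 3 (median -2.28) and at day 5 (median -3.28).

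Between the knockdowns and the control, none of the 35 genes passed. In the Cry2 knockdown 31 of 35 were lower than the control, with a median of -0.17, against 50.2% lower and a median of 0 over all genes. The median was -0.28 without the control library of day 5 and -0.11 without the Cry2 library of day 0. At an unadjusted p under 0.05, 8 of 35 were lower and 0 higher, against 6.48% lower and 5.77% higher over all genes. Of all genes 0.084%, or 11, passed in this comparison in either direction. The lowest p-values were those of 5 licensing or helicase genes. Mcm7 had -0.37 ± 0.09 (adjusted p = 0.176), Mcm10 -0.56 ± 0.16 (adjusted p = 0.211), Cdt1 -0.52 ± 0.15 (adjusted p = 0.222), Mcm6 -0.34 ± 0.13 (adjusted p = 0.337) and Mcm4 -0.29 ± 0.11 (adjusted p = 0.35). Of the 35, 6 were below the control at all 3 days (Cdt1, Mcm7, Mcm10, Pole, Rfc4 and Chaf1a), against 15.9% of all genes. DESeq2 also called 0.

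In the Cry1 knockdown 27 of 35 were higher than the control, with a median of 0.12, against 52.4% higher and a median of 0.01 over all genes. None passed by edgeR or DESeq2. At an unadjusted p under 0.05, 7 of 35 were higher and 0 lower, against 9.2% higher and 9.83% lower over all genes. Of all genes 2.67% passed in either direction. The lowest p-values were those of Ccne2 (0.5 ± 0.16, adjusted p = 0.133), E2f3 (0.3 ± 0.1, adjusted p = 0.15), Cdk2 (0.31 ± 0.11, adjusted p = 0.181), Slbp (0.29 ± 0.11, adjusted p = 0.191) and Uhrf1 (0.37 ± 0.14, adjusted p = 0.21). Of the 35, 17 were above the control at all 3 days, against 22.1% of all genes. Without the Cry1 library of day 0 the median was 0.08, and without that of day 3 it was 0.21. Differentiated muscle markers moved with this contrast too, with 10 of 10 higher, 1 of them past the threshold, and a median of 0.77. Of 5 reserve or satellite cell markers 4 were higher, 1 of them past the threshold. Their part in the values of the 35 genes was not tested.

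Seen day by day, the genotypes did not keep 1 distance from the control. For the Cry2 knockdown the median of the log2 ratios was -0.33 at day 0, with 32 of 35 genes lower, -0.25 at day 3, with 23 lower, and 0.11 at day 5, with 12 lower. For the Cry1 knockdown it was 0.16 at day 0, with 28 higher, 0 at day 3, with 19 higher, and 0.26 at day 5, with 32 higher. Over all genes these medians lay between -0.01 and 0.02. Mitosis genes in the Cry2 knockdown had medians of -0.25, -0.28 and -0.14, with 29, 25 and 19 of 29 lower. Each ratio compares 1 library with 1 library and has no replicate check, and both knockdowns are set against the same control libraries. The control at day 5 had the lowest level of the 3 genotypes for most of the 35 genes, among them Cdc6, Mcm5, Uhrf1 and Chaf1b. The largest ratios to it at that day are those of Chaf1b (1.8) and Mcm5 (1.7) in the Cry1 knockdown.

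**Figure D4:**
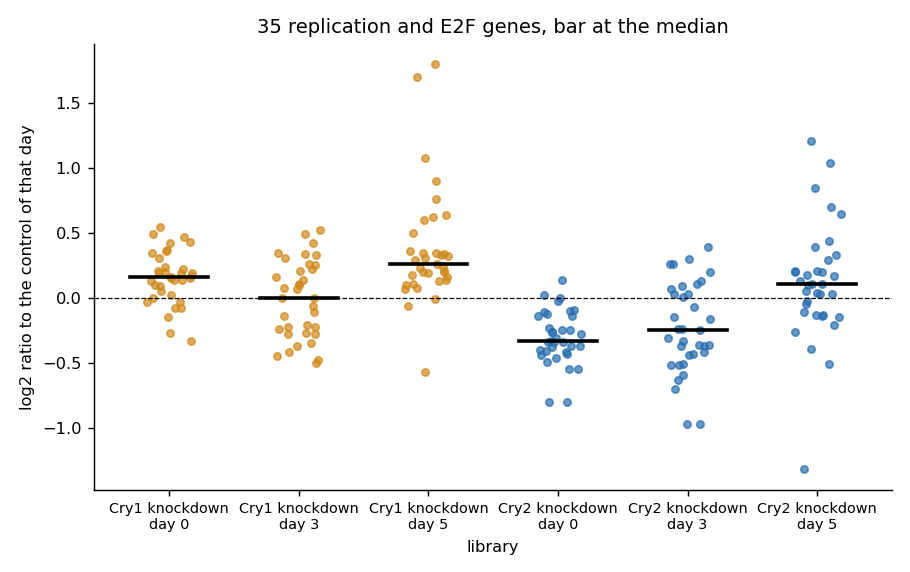
Log2 ratio of each of the 35 genes to the control library of the same day, with 1 point per gene and a bar at the median, for the Cry1 and the Cry2 knockdown at days 0, 3 and 5. The Cry2 medians run from -0.33 at day 0 to 0.11 at day 5, and the Cry1 medians are 0.16, 0 and 0.26.

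Set against each other, the knockdowns differed in part of the program. In the Cry2 knockdown 7 of the 35 genes were lower than in the Cry1 knockdown and none was higher, against 3.69% of all genes lower and 4.24% higher. The 7 were Mcm7 (-0.54 ± 0.09, adjusted p = 0.011), Cdt1 (-0.73 ± 0.15, adjusted p = 0.0218), Mcm10 (-0.75 ± 0.15, adjusted p = 0.0235), Mcm4 (-0.48 ± 0.11, adjusted p = 0.0329), Uhrf1 (-0.63 ± 0.15, adjusted p = 0.0337), Cdk2 (-0.48 ± 0.11, adjusted p = 0.0387) and Ccne2 (-0.67 ± 0.17, adjusted p = 0.0416). By role they are 3 of 8 licensing genes, 1 of 4 helicase genes, 2 of 3 in cyclin E and CDK2 and 1 of 4 in chromatin supply, with 0 among E2F, fork and nucleotide genes. The median over the 35 was -0.32 (-0.02 over all genes), 32 were lower, and 18 were lower at all 3 days, against 25.9% of all genes. Of the 71 other pathway genes 4 were lower (Asf1b, Dna2, E2f7 and Fbxo5) and E2f5 was higher, and of 29 mitosis genes 2 were lower (Kif11 and Cenpe). The genes outside the 35 were named after their values were seen. Differentiated muscle markers moved with this contrast: 10 of 10 were lower in the Cry2 knockdown, 3 past the threshold, with a median of -0.75. At day 0 they summed to 335 CPM in the Cry2 knockdown, 1220 in the Cry1 knockdown and 439 in the control. In the same order the sums were 18900, 22500 and 15500 CPM at day 3. At day 5 they were 23400, 22700 and 21700 CPM, so the Cry2 knockdown was then not the lower of the knockdowns. The part of these markers in the difference was not tested.

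The calls between the knockdowns changed with the library left out, and a fit with fewer libraries also has less power. The number of genes called was 0 without the Cry1 library of day 5 or the Cry2 library of day 0. It was 1 without the Cry1 library of day 0 or day 3 or the Cry2 library of day 3. It was 3 without the Cry2 library of day 5, 4 without the control of day 0 and 8 without the control of day 5. Without the control of day 3, every gene named above as called but Ccne2 passed. Mcm7 passed in 6 of the 9 fits with a library left out, with a highest adjusted p of 0.0546, and Ccne2 in 0. The fitted change of Mcm7 stayed between -0.60 and -0.48 in these fits. DESeq2 called 3, Mcm5, Mcm7 and Uhrf1. With day 0 left out, the only call was Rrm2, which was higher in the Cry2 knockdown (0.68, adjusted p = 0.0241).

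**Figure D5:**
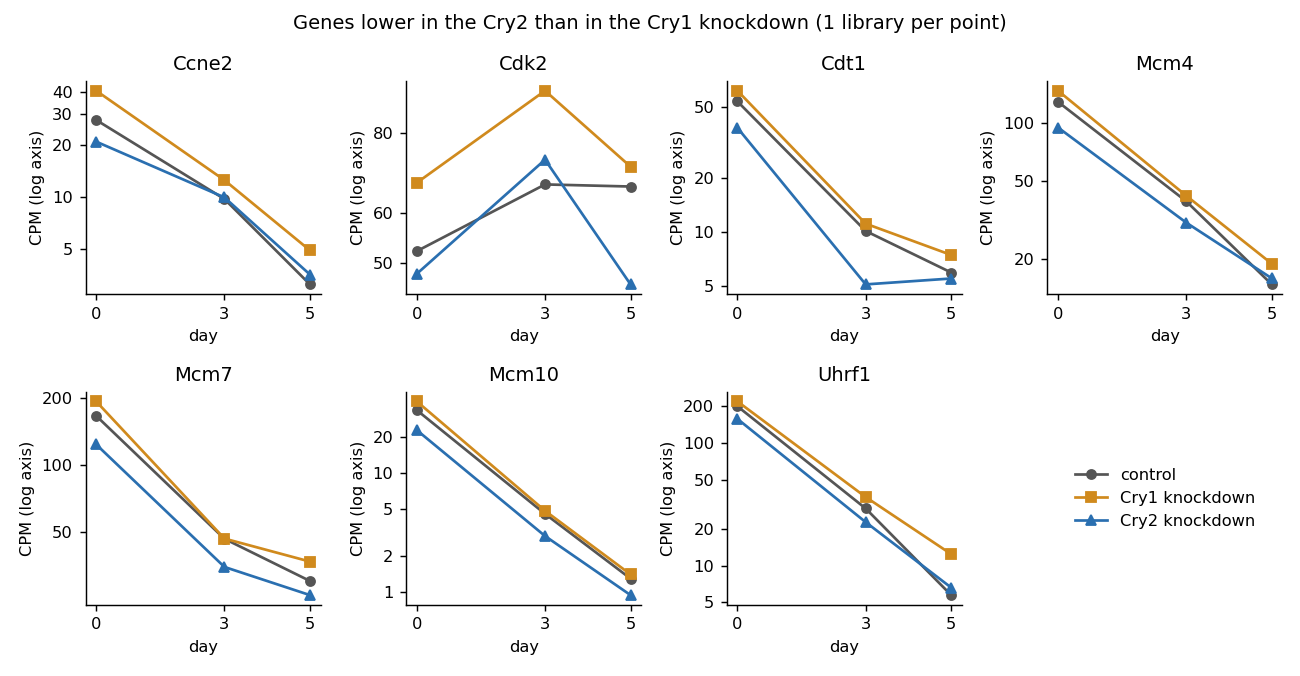
CPM on a log axis against day for the 7 genes lower in the Cry2 than in the Cry1 knockdown, with 1 line per genotype and 1 library per point. Blue triangles (Cry2 knockdown) lie below orange squares (Cry1 knockdown) at all 3 days, and the control lies between them at day 0 in all 7 panels.

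Whether the fall itself differed between genotypes was tested as the change from day 0 to days 3 and 5. No gene of the 35 passed for either knockdown. Of 13608 genes, 0.0367% passed for the Cry2 knockdown and 0% for the Cry1 knockdown, so few genes of any kind passed this test. For the Cry2 knockdown the 5 of lowest p were all positive, a smaller fitted fall than in the control. They were Rrm2 (0.91 ± 0.18, adjusted p = 0.572), Rfc3 (1.05 ± 0.38, adjusted p = 0.797), Chaf1a (0.51 ± 0.24, adjusted p = 0.835), Tyms (0.44 ± 0.23, adjusted p = 0.835) and Rrm1 (0.31 ± 0.16, adjusted p = 0.835). At an unadjusted p under 0.05, Rrm2 and Rfc3 were the 2 of 35 that were higher and 0 were lower, against 2.78% higher and 3.23% lower over all genes. For the Cry1 knockdown Rrm2 had -0.46 ± 0.18 (adjusted p = 0.976), the only one at an unadjusted p under 0.05 (over all genes 2.92% were lower and 2.01% higher at that level), followed by Uhrf1 (0.44 ± 0.26), Chaf1a (0.36 ± 0.23), Chaf1b (0.66 ± 0.43) and E2f3 (-0.3 ± 0.2), each with an adjusted p of 0.976. Without the control library of day 3, Rfc3 (1.57, adjusted p = 0.0307) and Rrm2 (1.05, adjusted p = 0.0144) passed for the Cry2 knockdown and Mcm5 (1.46, adjusted p = 0.0258) for the Cry1 knockdown. DESeq2 called 0 in both.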

How the data were processed

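PolyA RNA of 9 C2C12 libraries was sequenced on a HiSeq instrument after TruSeq RNA v2 preparation, a kit that does not keep strand. The deposited values are raw counts per Ensembl gene, and per the submitters' processing notes the authors used CASAVA 1.8, HISAT2 2.0.2, mm10 and featureCounts 1.4.6 of Subread. The annotation release and the strand setting are not given in the sources used here. Libraries were grouped by the genotype and day of the labels.

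Tests used edgeR 4.0.16 with limma 3.58.1 under R 4.3.3: TMM scaling, filterByExpr, quasi-likelihood F tests and Benjamini-Hochberg adjustment over all tested genes, with 0.05 as threshold. An additive fit of both factors gave the comparisons of genotypes and of days (13094 genes, 4 residual degrees of freedom). Differentiation responses came from genotype by stage, day 0 against later days, with a shared day 5 term (13608 genes, 2 residual degrees of freedom). Each SE was taken from a log2 fold change and its F statistic; edgeR bounds p from below by the Poisson spread, so a p can exceed what the error implies. Nothing in the labels says that libraries came from separate cultures, so p-values measure only the spread between these libraries, which may be technical. Within-day ratios used a prior count of 1. Lengths and overlaps came from a GENCODE annotation of mm10, promoter windows from RefSeq. Motif searches, descriptions and figures were made in Python 3.11.15 (matplotlib 3.10.9, numpy 2.4.6, pandas 2.3.3). The fit was tested on simulated data.

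The 35 genes and all lists were chosen with earlier results of these data known. CPM in all libraries is given for the E2F, cyclin E and Cdk2 genes, for the largest and smallest day 3 change of each other role, and for genes called between genotypes or not called by day 3. Genotype values are named for genes past the threshold or the 5 of lowest p, and other pathway genes by the largest fall and rise of each list at day 3. Other members named by a range or share were chosen after their values were seen. Tried in turn were RLE size factors, no filter, 1 CPM in 3 libraries, DESeq2 1.42.0, only the 6 libraries compared, each library, day or genotype left out, and a prior count of 5.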

Additional observations from a re-analysis of the deposited data

How the results depend on the processing

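The day results changed little: over 17 alternatives, 30 to 34 of the 35 genes passed for day 3 against day 0 (30 genes in all of them), 32 to 34 for day 5 against day 0 (32 in all) and 24 to 29 for day 5 against day 3 (21 in all). For the Cry2 against the Cry1 knockdown the count of 7 became 3 by DESeq2, 0 to 8 with a library left out, 1 without day 0 (a gene higher in the Cry2 knockdown), 0 without day 3 and 0 without day 5. It was 7 by RLE, 7 with 1 CPM in 3 libraries, 9 with no filter and 7 with only the 6 libraries compared. In that last setting the genes were not all the same, as Mcm5 and Chaf1b passed and Ccne2 and Mcm10 did not. Fewer libraries also mean less power, and the cause of these changes was not tested. The differentiation response had 0 to 2 genes called for the Cry2 and 0 to 1 for the Cry1 knockdown with a library left out. Fits of the response without a day 0 library could not be made, because the change from day 0 then has no value in that genotype. The counts of 0 against the control stayed 0 in every alternative run.

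Signs were compared only for the genes picked to be named with fitted values in a comparison, not for the other members. Among those compared, signs turned for 3 genes whose change was near 0 and did not pass. E2f3 for day 5 against day 3 was -0.0044 with no filter, -0.00023 with only 6 libraries, -0.07 without the Cry2 knockdown and -0.05 to 0.11 with a library left out. E2f2 for day 3 against day 0 was -0.25 without the control libraries and -0.25 to 0.31 with a library left out, and for day 5 against day 3 it was -0.04 without the Cry2 knockdown. Cdk2 for day 5 against day 0 was -0.01 to 0.24 with a library left out. At this depth Cdc6, Fen1, Chaf1b, Mcm10 and Gins1 have libraries with 3 to 6 counts, which limits what their day 5 values can show.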
